A study of Mus musculus with 6 samples.

Results

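Interleukin-4 (IL-4) and interleukin-13 (IL-13) act on cells through a small set of receptor chains, Janus kinases (JAKs), the transcription factor STAT6 and feedback inhibitors of the SOCS family, and the transcripts of these genes were examined in tuft cells sorted from mouse ileum. The genes were taken by name as the receptor, kinase, STAT and SOCS genes of the pathway: Il4ra, Il13ra1, Il13ra2, Il2rg, Jak1, Jak3, Tyk2, Stat6, Socs1 and Socs3. All 10 were found by symbol among the 23420 genes of the expression table. Tuft cells, a rare chemosensory cell type of the epithelium, came from Gfi1b-eGFP/+ mice on a C57BL/6J background (strain given as C57BL/6), in which green fluorescent protein (GFP) made from the Gfi1b locus marks these cells. Distal ileal epithelium was sorted for cells positive for GFP and EpCam and negative for CD45 and propidium iodide. Mice used in the study were 6 to 12 weeks old, with no age stated for single libraries and no treatment named in the labels. RNA was amplified by a modified SMART-Seq2 protocol with 18 cycles, although the labels also name a 3' polyA and a 10X preparation.

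The 6 libraries form a single group, so that no comparison between conditions was possible and every comparison was made between genes of the same library. Each library is labelled as a mouse replicate, but how many animals or cells were pooled in each is not stated, so p-values measure only the spread between these libraries. Levels are given as TPM, transcript abundance per length scaled to the same total in each library. Division by length makes genes comparable where reads cover whole transcripts, as in SMART-Seq2, and not where only 3' ends are read, and the labels do not state which preparation applies to each library. TPM keeps no read number, so that the depth of the libraries is unknown and a gene without signal can only be described as listed at 0. Between 13044 and 13308 genes were listed above 0 per library, and Spearman correlations across genes lay between 0.915 and 0.937 for the 15 pairs of libraries. The ribosomal RNA gene Rn45s took 25.1%, 24.8% and 23.1% of all TPM in replicates 1 to 3 and 26.7%, 32.6% and 32.2% in replicates 4 to 6. These sets of replicates stood apart in Rn45s and also in the predicted gene Gm20594, listed at 15588 to 21283 TPM in the former and at 51805 to 56441 TPM in the latter. The labels name no batch.

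The tuft cell label was checked against marker genes. Of 14 tuft cell genes, 13 were in the table, and all 13 reached at least 1 TPM in every library. Their summed level was 10772, 9853, 6347, 8024, 6689 and 6687 TPM in replicates 1 to 6. Abundant genes of the list included the taste-type cation channel Trpm5 (1141 TPM ± 211, SD, n = 6), the regulator of G protein signalling Rgs13 (902 TPM ± 165) and the kinase Dclk1 (628 TPM ± 130.1). Il25, the cytokine by which tuft cells alert innate lymphoid cells, was at 62.4 TPM ± 14.5. Ptprc, the gene of the CD45 protein used for negative sorting, was nevertheless listed at 74.2 to 171 TPM.

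In this pathway IL-4 can signal through a type I receptor, made of the IL-4 receptor alpha chain (Il4ra) and the common gamma chain (Il2rg), whereas IL-4 and IL-13 share a type II receptor made of Il4ra and Il13ra1. Jak1 is bound by Il4ra, Jak3 by the common gamma chain and Tyk2 by Il13ra1, and the activated kinases create docking sites at which STAT6 is phosphorylated before it enters the nucleus. In the small intestine, IL-13 from group 2 innate lymphoid cells (ILC2s) acts on epithelial progenitors and raises the number of tuft and goblet cells during helminth infection.

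Of the 10 members, 8 were listed above 0 in every library, against 47.2% of all genes in the table. At least 1 TPM in every library was reached by 7 of the 10, against 39.9% of all genes. The median of the mean level was 9.27 TPM over the members and 1.24 TPM over all genes. Members fell into a group of abundant transcripts (Il13ra1, Stat6, Jak1 and Il4ra) and a group of less abundant ones (Tyk2, Socs3, Socs1 and Jak3). The latter had means at percentiles 56.8, 50.7, 46.1 and 42.9 among genes listed above 0 in at least 1 library. Il2rg and Il13ra2 came last and were at 0 in some or all libraries. The plot of all members by library shows this order.

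**Figure D1:**
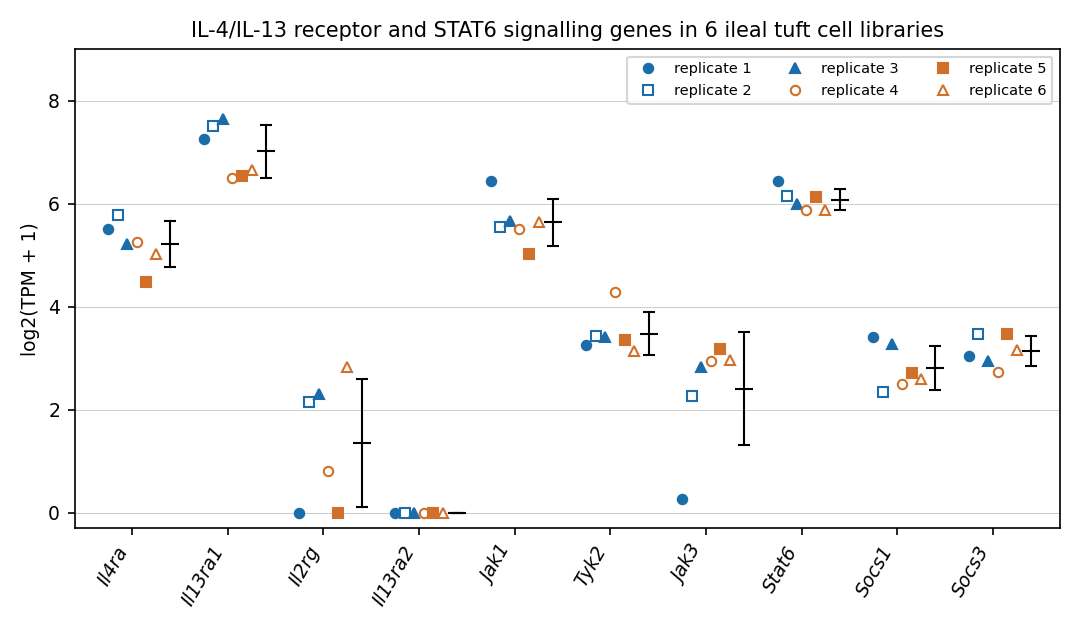
Level of the 10 members on the log2(TPM + 1) scale in each of the 6 libraries (symbols, blue for replicates 1 to 3 and orange for replicates 4 to 6), with the mean and SD in black. Il13ra1 was the highest member, with 89.9 to 199.8 TPM, Il13ra2 was listed at 0 in every library, and Jak3 was lowest in replicate 1 at 0.20 TPM.

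The ligands themselves were nearly without signal in the sorted cells. Il13 was listed at 0 in every library. Il4 was listed at 2.37 TPM in replicate 5 and at 0 in the other libraries. Genes of ILC2s, a major intestinal source of IL-13, were also low. Of 8, 4 (Klrg1, Il5, Il13 and Il7r) were at 0 in every library, against 7713 of all 23420 genes. The sum of the list was 17.8, 15.6, 6.87, 17.1, 10.4 and 12.2 TPM in replicates 1 to 6. Most of that sum was Areg (12.2 TPM ± 4.12), which encodes amphiregulin, an epidermal growth factor family member that epithelial cells also make.

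Il13ra1, the chain that binds IL-13 in the type II receptor (ENSMUSG00000017057.9, chrX:36112110-36171259, plus strand), was the most abundant member. It was at 152, 182, 199.8, 89.9, 92.5 and 100.1 TPM in replicates 1 to 6 (136 TPM ± 48.5, SD, n = 6). All of replicates 1 to 3 were above all of replicates 4 to 6, with means of 178 and 94.2 TPM, and this separation was also seen after rescaling by median of ratios (160.3 and 98.7 TPM) and after rescaling without Rn45s and Gm20594 (241 and 147 TPM). Marker sums of stem cells, Paneth cells, T and NK lymphocytes, and B and plasma cells were apart between the same sets. Those of enterocytes, goblet cells and enteroendocrine cells overlapped. The T and NK sum and the B and plasma cell sum, given below, were higher in each of replicates 4 to 6, the opposite direction to Il13ra1. The 6 stem cell genes, all above 0 in every library and led by Olfm4 (501 TPM ± 173), summed to 735, 813, 785, 613, 470.5 and 336 TPM in replicates 1 to 6. Among them only Olfm4 was itself apart between the sets, which overlapped for Lgr5, Ascl2, Smoc2, Axin2 and Slc12a2. The 7 Paneth cell genes, all above 0 in every library and led by the alpha-defensin Defa24, summed to 7171, 3742, 4184, 26006, 15744 and 8422 TPM, the opposite direction to Il13ra1. Of these, Defa17, Defa22, Defa24 and Defa26 were apart between the sets, whereas Lyz1, Mmp7 and Ang4 overlapped. The part of stem, Paneth, lymphocyte and B or plasma cell transcripts in the Il13ra1 level was not tested. Nor was that of Rn45s and Gm20594 beyond the rescalings. The mean of Il13ra1 stood at percentile 95.0 among the 15707 genes listed above 0 in at least 1 library. In both sets of libraries, then, the Il13ra1 transcript ranked among the abundant ones, at percentile 91.6 in replicate 4, the lowest of the 6.

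Il4ra, the chain shared by both receptor types (ENSMUSG00000030748.9, chr7:125552120-125579474, plus strand), was at 44.4, 54.4, 36.1, 37.4, 21.2 and 31.7 TPM (37.5 TPM ± 11.3). Replicate 2 was highest and replicate 5 lowest, and the sets of replicates 1 to 3 and 4 to 6 overlapped. Il4ra was below its type II partner in every library, and the ratio of Il13ra1 to Il4ra in TPM ran from 2.40 in replicate 4 to 5.53 in replicate 3, with a median of 3.39. On the log2(TPM + 1) scale, the mean difference of Il4ra minus Il13ra1 was -1.81 ± 0.41 (SD, n = 6), lower in 6 of 6 libraries (exact sign-flip permutation over the libraries, two-sided, p = 0.03125, adjusted p = 0.0365 over 7 comparisons). This p is the smallest that 6 libraries allow, and the tests of the other pairs that had 1 sign in all libraries share it. The 7 comparisons include Il13ra1 minus Il13ra2, whose sign was fixed because Il13ra2 was at 0, and the adjusted p of the pairs that passed was 0.0375 in the same exact test with that comparison left out.

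The common gamma chain gene Il2rg (ENSMUSG00000031304.18, chrX:101264378-101268255, minus strand), the partner of Il4ra in the type I receptor, was at 0, 3.45, 3.97, 0.75, 0 and 6.09 TPM. Il2rg shares 728 exonic bases on the same strand with the protein-coding gene Gm20489, which is not in the table, so that how reads in that stretch were assigned is not known. Replicates 1 and 5 were at 0, and the highest library, replicate 6, remained far below the lowest Il13ra1 value. Il13ra1 exceeded Il2rg by 5.67 ± 1.17 on the log2(TPM + 1) scale, in 6 of 6 libraries (two-sided exact sign-flip test, p = 0.03125, adjusted p = 0.0365). Because Il2rg was at 0 in a part of the libraries, this difference depends on the pseudocount, and it became 7.08 with 0.1 and 8.23 with 0.01 in place of 1. There are 6 other receptor chains that pair with the common gamma chain. Of these, 4 were above 0 in every library, against 47.2% of all genes, and 2 reached 1 TPM, against 39.9%. Il15ra, the alpha chain of the interleukin-15 receptor, was at 1.13, 2.82, 2.12, 9.90, 15.4 and 16.5 TPM, higher in each of replicates 4 to 6 than in any of replicates 1 to 3. Il9r, the interleukin-9 receptor, was at 10.1, 8.29, 7.26, 1.64, 3.35 and 2.51 TPM, with the sets apart in the opposite direction. Il21r and Il2rb had means of 0.895 and 0.767 TPM, and the interleukin-7 receptor gene Il7r was listed at 0 in every library.

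Il13ra2, a decoy receptor that binds IL-13 with high affinity (ENSMUSG00000031289.10, chrX:147383476-147429192, minus strand), was listed at 0 in every library. No fold is given against a gene at 0. The difference Il13ra1 minus Il13ra2 on the log2(TPM + 1) scale therefore equals the level of Il13ra1 on that scale, 7.02 ± 0.51, and it grew to 10.33 and 13.65 with pseudocounts of 0.1 and 0.01. Its sign could not have been other than positive, so no p is given for it.

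A list of 33 genes for other JAK-STAT cytokine receptors included the ligand gene Clcf1 and the receptor tyrosine kinase gene Csf1r. Of the 33, 17 were above 0 in every library, against 47.2% of all genes, and 12 reached 1 TPM, against 39.9%. Another 6 (Cntfr, Clcf1, Il10ra, Il20ra, Il12rb1 and Il23r) were at 0 throughout, against 7713 of all 23420 genes. The most abundant was Il10rb, the chain shared by the receptors of interleukin-10, interleukin-22 and interferon lambda, at 146.6 TPM ± 49.8. Like Il13ra1, it was higher in each of replicates 1 to 3 than in any of replicates 4 to 6 (means 187 and 106 TPM), also after both rescalings. The ratio of Il13ra1 to Il10rb ran from 0.689 to 1.27 and was above 1 in 2 libraries, so their order was not fixed. The interferon gamma receptor genes Ifngr2 and Ifngr1 were at 104 TPM ± 19.02 and 83.5 TPM ± 23.4. Ifnar2, a chain of the type I interferon receptor, was at 45.1 TPM ± 17.0, a level that overlapped that of Il4ra. Ifngr1 and Ifnar2 were also higher in each of replicates 1 to 3, with means of 98.7 against 68.3 TPM and 58.3 against 31.9 TPM, but after median-of-ratios rescaling the sets overlapped for both. After rescaling without Rn45s and Gm20594 they overlapped for Ifngr1 and stayed apart for Ifnar2.

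Jak1, the kinase bound by Il4ra (ENSMUSG00000028530.14, chr4:101152367-101265282, minus strand), was the most abundant JAK gene in 6 of 6 libraries. Its level was 86.3, 45.8, 49.7, 44.3, 31.8 and 49.4 TPM (51.2 TPM ± 18.4, SD, n = 6). Replicate 1 stood above the rest, and without it the mean was 44.2 TPM. Jak1 made up 62.5% ± 8.22 of the summed TPM of the 4 JAK genes, from 52.7% in replicate 4 to 73.1% in replicate 1.

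Tyk2, the kinase that associates with Il13ra1 (ENSMUSG00000032175.11, chr9:21104068-21131243, minus strand), was at 8.51, 9.74, 9.72, 18.6, 9.27 and 7.80 TPM (10.6 TPM ± 3.98). Replicate 4 was the high library, and the other 5 lay close together. Jak1 exceeded Tyk2 by 2.16 ± 0.69 on the log2(TPM + 1) scale, higher in 6 of 6 libraries (two-sided exact sign-flip test, p = 0.03125, adjusted p = 0.0365). The ratio in TPM ran from 2.39 to 10.1 with a median of 4.91.

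Jak3, the kinase recruited by the common gamma chain (ENSMUSG00000031805.17, chr8:71676296-71690575, plus strand), was at 0.20, 3.81, 6.13, 6.68, 8.10 and 6.79 TPM (5.29 TPM ± 2.86). Replicate 1 was nearly without it, and each of replicates 4 to 6 was above each of replicates 1 to 3 (means 7.19 and 3.38 TPM), also after both rescalings. Jak1 exceeded Jak3 by 3.23 ± 1.52 on the log2(TPM + 1) scale, in 6 of 6 libraries (two-sided exact sign-flip test, p = 0.03125, adjusted p = 0.0365). Replicate 1 carried much of this size, with a difference of 6.18, and the mean without it was 2.64. Within replicates 1 to 3 the difference was 4.10, and within replicates 4 to 6 it was 2.37. Jak3 shares 404 exonic bases on the same strand with Insl3, which was listed at 0 to 2.39 TPM, and how reads in the shared stretch were divided is not known. On the opposite strand, Il4ra shares 571 exonic bases with Gm44876 and Tyk2 shares 554 with 1700084C06Rik, neither of which is in the table. Stat6 shares 40 with Nab2 (0 to 2.63 TPM) and Jak1 shares 4 with Raver2, which was at 0 in every library. Jak2, best known from other cytokine receptors, had the next highest mean after Jak1, at 23.0, 18.9, 7.81, 14.6, 8.60 and 8.72 TPM (13.6 TPM ± 6.31), although Tyk2 exceeded it in replicates 3, 4 and 5.

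Of the 9 members with a mean of at least 1 TPM, 2 had replicates 1 to 3 and replicates 4 to 6 that did not overlap, Il13ra1 and Jak3, in opposite directions. The same held for 16.3% of the 12032 genes of the table with such a mean. Jak3 and Il2rg are used most by lymphocytes, and genes of T and NK lymphocytes differed between the libraries. Of 20 such genes, 10 were above 0 in every library, against 47.2% of all genes, and Il7r was at 0 in every library. Their sum was 56.6, 138.9, 108, 162, 454 and 486 TPM in replicates 1 to 6, highest in replicates 5 and 6 and lowest in replicate 1, where Jak3 was also lowest. The most abundant was the chemokine Ccl5 (76.2 TPM ± 62.3), followed by the granzyme Gzma (68.3 TPM ± 63.6). Both were higher in each of replicates 4 to 6 than in any of replicates 1 to 3, with means of 119.7 against 32.6 TPM for Ccl5 and 111 against 25.1 TPM for Gzma. Components of the T cell receptor complex followed no common order. Cd3e was at 3.70, 3.43, 1.5, 4.5, 1.52 and 11.6 TPM, highest in replicate 6. Cd3d was at 3.85, 2.21, 1.18, 4.16, 0.98 and 1.18 TPM, highest in replicate 4. Cd3g was at 0, 10.5, 2.51, 4.25, 13.1 and 11.3 TPM, highest in replicate 5. Il2rg was highest in replicate 6. Replicate 5, in contrast, had one of the highest lymphocyte sums and Il2rg at 0. The part of lymphocyte transcripts in the Jak3 and Il2rg levels was not tested. In bulk libraries, fewer cells of a type and less RNA per cell cannot be told apart.

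**Figure D2:**
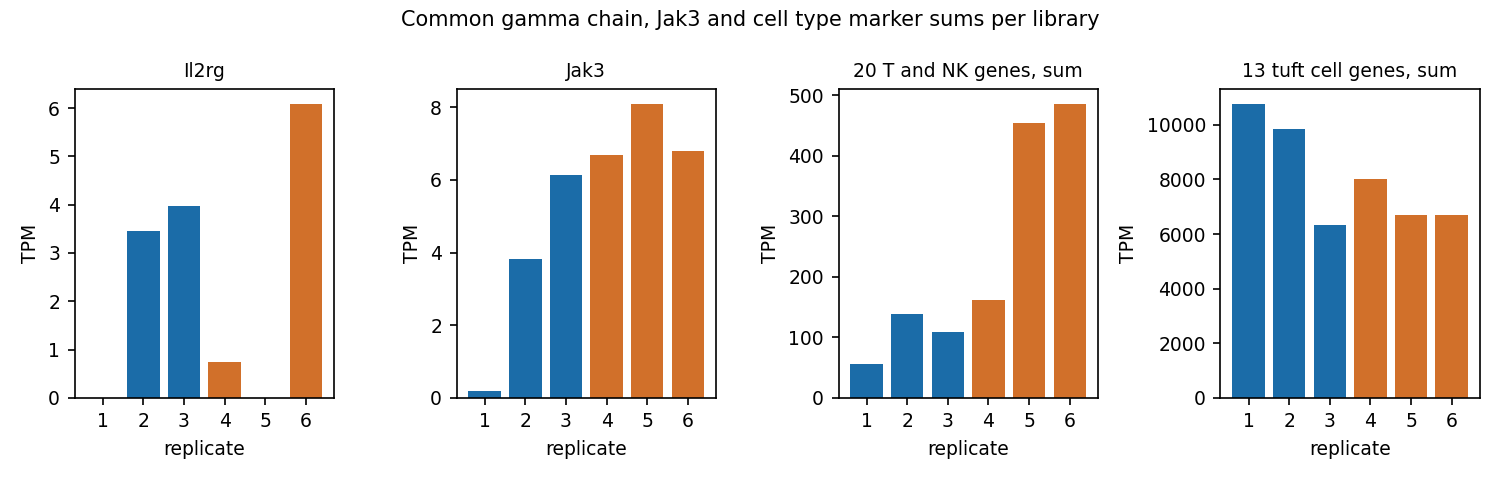
TPM of Il2rg, of Jak3, and the summed TPM of 20 T and NK lymphocyte genes and of 13 tuft cell genes in each of the 6 libraries (bars, blue for replicates 1 to 3 and orange for replicates 4 to 6). The lymphocyte sum was 454 and 486 TPM in replicates 5 and 6, of which replicate 5 had Il2rg at 0 and replicate 6 had it at 6.09 TPM.

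Stat6 (ENSMUSG00000002147.18, chr10:127642986-127660957, plus strand), the transcription factor activated by both receptor types, was at 85.8, 70.1, 63.0, 58.2, 69.3 and 57.7 TPM (67.3 TPM ± 10.5, SD, n = 6). It was among the steadier genes between libraries, with its highest value 1.49 times its lowest, against a median of 2.31 for genes above 0 in every library whose mean reached 10 TPM. Its coefficient of variation was 15.5%, against a median of 31.0% over the 6986 genes with such a mean, of which 6.86% had a lower one. Its mean was at percentile 90.03 of the genes listed above 0.

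Stat6 was the most abundant of the 7 STAT genes in 6 of 6 libraries and made up 41.8% ± 2.05 of their summed TPM, from 39.2% to 45.4%. Against the most abundant other STAT gene of the same library, which was Stat2 in 5 libraries and Stat3 in replicate 3, it was higher by 0.93 ± 0.15 on the log2(TPM + 1) scale, in 6 of 6 libraries (two-sided exact sign-flip test, p = 0.03125, adjusted p = 0.0365). In TPM, the ratio of Stat6 to Stat2 ran from 1.64 to 2.79. That of Stat6 to Stat3 ran from 1.85 to 2.66. Stat2, which acts in type I interferon signalling, was at 33.1 TPM ± 8.67, and Stat3, activated by interleukin-6 family and interleukin-22 receptors, was at 29.5 TPM ± 3.95. Stat3 and Stat5b were higher in each of replicates 1 to 3 than in any of replicates 4 to 6 (means 32.7 and 26.2 TPM for Stat3, 3.74 and 1.91 TPM for Stat5b), but the sets overlapped after either rescaling. The levels of Stat2 and Stat3 overlapped between libraries. Stat5a (4.64 TPM ± 2.52) and Stat5b (2.82 TPM ± 1.24), which act downstream of common gamma chain cytokines, did not exceed 8.74 TPM in any library. Stat4, activated by interleukin-12, was listed at 2.70 TPM in replicate 1 and at 0 in the other libraries.

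The feedback inhibitors among the members could not be ordered. Their means stood in the middle range of genes listed above 0, at percentile 46.1 for Socs1 and 50.7 for Socs3. Socs1 (ENSMUSG00000038037.5, chr16:10782240-10785536, minus strand), which blocks JAK activity and is induced by STAT6, was at 9.59, 4.08, 8.69, 4.69, 5.60 and 5.07 TPM (6.29 TPM ± 2.28). Socs3 (ENSMUSG00000053113.3, chr11:117966079-117970047, minus strand), best known for limiting STAT3 signalling, was at 7.24, 10.1, 6.71, 5.61, 10.0 and 7.98 TPM (7.94 TPM ± 1.81). Socs1 was lower than Socs3 in 4 libraries and higher in replicates 1 and 3. The mean difference of Socs1 minus Socs3 was -0.33 ± 0.60 on the log2(TPM + 1) scale and did not pass the threshold (two-sided exact sign-flip test, p = 0.25, adjusted p = 0.25, n = 6).

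The SOCS family was led by another gene, Socs2, an inhibitor of growth hormone signalling, in 6 of 6 libraries. Socs2 was at 29.9, 44.8, 59.7, 34.7, 27.1 and 23.7 TPM and made up 37.5% ± 8.13 of the family's summed TPM, whereas Socs1 and Socs3 took 6.57% ± 1.90 and 8.49% ± 2.39. The ratio of Socs2 to Socs1 ran from 3.12 to 10.97, and that of Socs2 to Socs3 from 2.70 to 8.89. Socs4 (17.6 TPM ± 5.94) and Socs6 (16.6 TPM ± 4.11) also had higher means than Socs1 and Socs3. Socs4 was higher in each of replicates 1 to 3 than in any of replicates 4 to 6 (means 22.1 and 13.1 TPM), but not after either rescaling. Socs7 and Socs5 were at 4.76 TPM ± 1.67 and 2.53 TPM ± 1.84. Cish, a STAT5-induced inhibitor, was at 2.09, 8.22, 3.57, 7.04, 0 and 1.71 TPM.

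**Figure D3:**
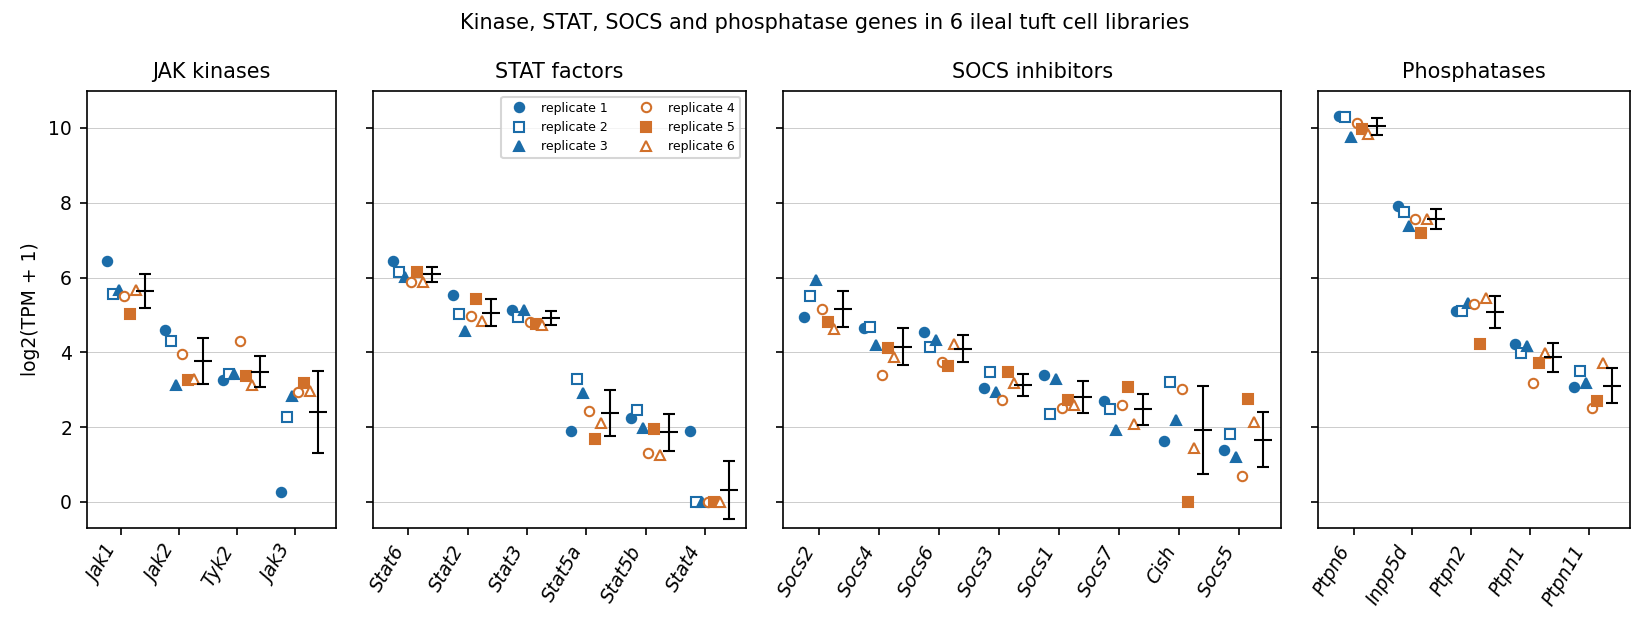
Levels of JAK, STAT and SOCS genes and of 5 phosphatase genes on the log2(TPM + 1) scale in each of the 6 libraries (symbols, blue for replicates 1 to 3 and orange for replicates 4 to 6), with the mean and SD in black. Jak1, Stat6 and Socs2 led their families in every library, and the phosphatase gene Ptpn6 was at 872 to 1266 TPM.

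The 27 other genes of the pathway included adaptors, phosphatases, PIAS proteins, STAT6 coactivators and Jak2. Of these, 25 were above 0 and at least 1 TPM in every library, against 47.2% and 39.9% of all genes. A pair of phosphatase genes led the list. Ptpn6, which encodes SHP-1, a tyrosine phosphatase that dephosphorylates JAKs and STAT6, was at 1266, 1243, 872, 1123, 1003 and 908 TPM (1069 TPM ± 168, SD, n = 6). It ranked 82 among all genes of the table by mean level and was 13.8 to 19.3 times as abundant as Stat6, with a median of 15.3. Inpp5d, the gene of the inositol phosphatase SHIP1, was at 242, 216, 165, 189, 144 and 187 TPM (190.5 TPM ± 35.0). Snd1, a STAT6 coactivator, and Ptpn2, a phosphatase of JAK1 and JAK3, followed at 39.5 TPM ± 21.2 and 34.0 TPM ± 8.69. Ptpn6 and Inpp5d are also known from leukocytes, in which they restrain immune receptors. The sum of 6 pan-leukocyte genes was 1194, 961, 586, 631, 518 and 479 TPM in replicates 1 to 6, with none at 0 throughout. It rested on Rac2 (598 TPM ± 243) and Ptprc (112 TPM ± 42.0), whereas the other 4 had means of 2.20 to 6.01 TPM. The part of leukocyte transcripts in the phosphatase levels was not tested.

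In the order of mean levels, neighbouring members often did not differ beyond their spread. Il13ra1 exceeded Stat6 by 0.94 ± 0.47 on the log2(TPM + 1) scale in 6 of 6 libraries. Stat6 exceeded Jak1 by 0.44 ± 0.38 and Jak1 exceeded Il4ra by 0.43 ± 0.40, each in 5 of 6 libraries. The gap between Il4ra and Tyk2 was the clearest break, with 1.73 ± 0.58 in 6 of 6 libraries. Below it, Tyk2 and Socs3 (0.35 ± 0.64, higher in 3), Socs3 and Socs1 (0.33 ± 0.60, higher in 4), and Socs1 and Jak3 (0.40 ± 1.39, higher in 3) were not separated. Jak3 was above Il2rg in 6 of 6 libraries, by 1.06 ± 1.29.

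Genes that IL-4 or IL-13 induce in epithelium or macrophages were then described. Of 33 such genes, 10 were above 0 in every library, against 47.2% of all genes, and 9 reached 1 TPM, against 39.9%. Another 10 (Retnla, Chi3l4, Alox15, Muc5ac, Il13ra2, Serpinb2, Postn, Tff2, Ccl22 and Il24) were at 0 in every library. Of all 23420 genes in the table, 7713 were also at 0 in every library. The median of the mean levels of the 33 genes was 0.327 TPM, against 1.24 TPM over all genes. The most abundant was Ptgs1, which encodes cyclooxygenase-1 and is also a tuft cell gene, at 312 TPM ± 87.0. Fcgbp, a mucus protein of goblet cells, was at 146, 67.2, 128, 174, 211 and 229 TPM, and the transglutaminase Tgm2 and the nuclear receptor Pparg were at 56.3 TPM ± 15.7 and 31.0 TPM ± 15.4. Retnlb, the goblet cell resistin-like molecule that rises in helminth infection, was listed at 0.62 TPM in replicate 4 and at 0 in the other libraries. Clca1, another goblet cell product, was at 0.16 to 6.67 TPM. Fcgbp belongs to the goblet cell list as well, whose sum of 7 genes was 1155, 1053, 2495, 2324, 2986 and 5118 TPM and was led by Zg16 (848 TPM ± 511), with none at 0 throughout. Fcgbp, Zg16 and Muc2 were higher in each of replicates 4 to 6 than in any of replicates 1 to 3, whereas the sets overlapped for the other 4 (Tff3, Agr2, Spink4 and Clca1). Its part in the Fcgbp level was not tested.

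The genes most like Il4ra and Stat6 across the 6 libraries were sought among 6985 others with a mean of at least 10 TPM, by Pearson correlation of log2(TPM + 1), as a description. For Il4ra they included Prkar1a, a regulatory subunit of protein kinase A (r = 0.993), and Tmem167b (r = 0.991). Prkar1a was at 98.3, 117, 74.0, 77.3, 45.5 and 62.5 TPM, with the same highest and lowest library as Il4ra. For Stat6 they were Lcorl (r = 0.976), Arhgef2, a guanine nucleotide exchange factor (r = 0.975), and the growth factor gene Bmp2 (r = 0.966). Bmp2 was at 102.7, 64.0, 33.1, 35.3, 53.6 and 32.6 TPM and, like Stat6, was highest in replicate 1. In all, 218 genes had r above 0.9 with Il4ra and 77 with Stat6, and these counts were not set against a chance value.

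Promoter windows from RefSeq (build GRCm38.p6, 250 bases before to 50 after the RefSeq start of the gene) were found for all 10 members and searched for TTCNNNGAA, the general STAT motif, and for TTC and GAA parted by 4 bases, the spacing that STAT6 prefers. Both motifs are palindromes, so a match on either strand is a match on the other. TTCNNNGAA was in 8.30% of 32851 windows of the genome and in 1 of 10 members, Socs3. Among the 18 member, JAK, STAT and SOCS genes with a window it was in 2, Socs3 and Cish. The motif with 4 bases between was in 6.95% of windows, in 0 of 10 members and in 1 of the 18 genes, Stat2. The matches are shown because they are the only ones among the 18 genes, 5' to 3' on the strand of the gene, with the motif in capitals. The sequences lie at chr11:117969501-117969530 on the minus strand for Socs3, at chr9:107296649-107296678 and chr9:107296660-107296689 on the plus strand for Cish, which overlap, and at chr10:128270278-128270307 on the plus strand for Stat2. The RefSeq starts of Socs3 and Cish lie 681 and 633 bases inside the genes as GENCODE M21 draws them, so that both windows are within those genes and not upstream of them in that annotation. Counted from the RefSeq start, the motif began before it at base -154 for Socs3 and at base -210 for Stat2. The Cish motifs began at bases 1 and 12, with the start as base 1. For Cish, upstream and downstream below give the order of the matches and not their side of the start. A match is a description of these letters and not a binding site.
Socs3: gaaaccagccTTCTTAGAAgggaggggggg
Cish, upstream match: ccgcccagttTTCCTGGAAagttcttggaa
Cish, downstream match: tcctggaaagTTCTTGGAAatctgtcaaag
Stat2: tcagtttcctTTCCCTAGAActcacggttc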

How the data were processed

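The authors used Bcl2Fastq to convert sequencer output and Bowtie to align the read pairs to mouse transcripts (UCSC, mm10). RSEM then gave the deposited TPM values, in which reads of several transcripts are divided by estimated shares. The strand setting is not given in the sources used here, so reads of overlapping genes on opposite strands cannot be told apart. Columns were matched to the 6 libraries by replicate number, and 0 columns of per-sample values were left unused. The members and lists were chosen with earlier results of these data known.

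Differences between genes of a library in log2(TPM + 1) were tested over the 64 sign assignments of an exact permutation test (sign-flip, two-sided), with Benjamini-Hochberg adjustment over 7 comparisons and a threshold of 0.05. Alternatives were pseudocounts of 0.1 and 0.01, values under 0.1 TPM set to 0, median-of-ratios rescaling, rescaling to the same total without Rn45s and Gm20594, an exact Mann-Whitney test over 924 assignments, leaving out each library, and values within replicates 1 to 3 and 4 to 6. Named genes were all members, all ligand, JAK, STAT and SOCS genes, the 4 most abundant genes of each other pathway list, the most abundant gene and those at 0 of each cell type list, and the 3 genes most like Il4ra and Stat6. Some genes that fall under this rule are not reported here. Other genes named were chosen after their values were seen. Older symbols were matched through RefSeq synonyms, as Siglec5 for Siglecf, Igj for Jchain and Chi3l4 for Chil4. Gene positions came from GENCODE M21 (GRCm38) by symbol. The scripts were tested on simulated data and used scipy 1.17.1, pandas 2.3.3, numpy 2.4.6 and matplotlib 3.10.9 under Python 3.11.15.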

Additional observations from a re-analysis of the deposited data

Results flagged for a closer look

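In 3 of 16 measures screened, the gap between a single library and its nearest neighbour took a larger share of the whole range than the critical value of Dixon's test allows for 6 libraries. Chance gives about 1 in 20 such cases, or 0.8 of 16 if the measures were independent. They are not, because the log2 differences are built from the same TPM values. The Jak1 level and the Jak1 minus Jak3 difference below share the Jak1 value of replicate 1, so the number of cases cannot be set against chance. Jak1 was at 86.3 TPM in replicate 1, with the next library at 49.7 TPM (a gap of 0.672 of the range). Tyk2 was at 18.6 TPM in replicate 4, with the next at 9.74 TPM (0.820 of the range), and its mean without replicate 4 was 9.01 TPM. Jak1 minus Jak3 was 6.18 in replicate 1 on the log2(TPM + 1) scale, with the next library at 3.28 (0.669 of the range), where Jak1 was highest and Jak3 lowest. The cause of these values was not tested.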

How the results depend on the processing

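In the 5 pairs that passed with 1 sign in all libraries, another pseudocount, a rescaling or fewer libraries could change the size of the difference but not its direction or the exact p of 6 libraries, so these settings say nothing of their stability. Socs1 minus Socs3 stayed below 0 in each setting run and short of the threshold in each that gives a p. Setting values under 0.1 TPM to 0 changed no difference. The number of members was 8 above 0 in every library, 7 at 1 TPM or more and 9 above 0 in at least 1 library. The exact two-sided Mann-Whitney test gave p = 0.00216 (adjusted p = 0.00253, or 0.0026 without Il13ra1 minus Il13ra2) for the 5 pairs that passed and p = 0.132 for Socs1 minus Socs3. Over the fits that left out a library, log2 differences were 5.36 to 6.04 for Il13ra1 minus Il2rg, -1.92 to -1.68 for Il4ra minus Il13ra1, 1.95 to 2.35 for Jak1 minus Tyk2, 2.64 to 3.51 for Jak1 minus Jak3, 0.89 to 0.98 for Stat6 against the other STAT gene and -0.46 to -0.17 for Socs1 minus Socs3. With 5 libraries the smallest exact p is 0.0625 and within 3 it is 0.25, so these say nothing of the threshold. Mean levels moved by more than 1 SD in 7 of 80 cases, all after rescaling without Rn45s and Gm20594, which raised the median gene by 0.50 on the log2 scale. Leaving out libraries for the member count, which stayed at 8, rescaling the sets of replicates and adjusting without Il13ra1 minus Il13ra2 were chosen after seeing the data. Genes were paired within libraries, but no pairing of samples between groups exists, since the libraries form a single group. Depth is unknown, so levels near 0 carry no interval.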

Other observations

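Other cell types were read from their marker lists as summed TPM in replicates 1 to 6. The 8 B and plasma cell genes summed to 0.55, 1.05, 2.64, 4.80, 40.4 and 17.4 TPM, led by Igj, the immunoglobulin joining chain, with Ms4a1 and Mzb1 at 0 in every library. The 12 macrophage and dendritic cell genes summed to 37.6, 34.2, 57.03, 29.8, 20.6 and 37.4 TPM, led by the integrin Itgam, with none at 0 throughout. The 9 mast cell and eosinophil genes summed to 1481, 1315, 814, 1068, 826 and 911 TPM. Nearly all of that sum was Siglec5 (933 TPM ± 259), the table's name for Siglecf, and Kit (129.9 TPM ± 22.1), whereas the granule genes Prg2 and Epx and the IgE receptor chain Ms4a2 were at 0 in every library. The 8 stromal and endothelial genes summed to 6.20, 0.87, 2.27, 3.67, 4.86 and 1.03 TPM, led by Pdgfrb, with Col1a2 and Cdh5 at 0 throughout.

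The 8 enterocyte genes summed to 16286, 12688, 8002, 11472, 8009 and 9652 TPM, led by the fatty acid binding protein Fabp1. Values of single defensins in the Paneth cell list are uncertain because the genes are nearly identical. The 9 enteroendocrine genes summed to 387, 528, 474, 454, 487 and 433 TPM. Most of that sum was secretin (Sct, 384 TPM ± 50.5), and 3 of the 9 genes were above 0 in every library, against 47.2% of all genes. In the enterocyte and enteroendocrine lists no gene was at 0 in every library.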
